A study of Mus musculus with 12 samples.

Results

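The hippocampus of 5 × FAD mice was compared with that of wild-type (WT) mice by the non-coding and assembled transcripts of each gene. The members were all autosomal gene sums of the long RNA count table: the rows of a gene in the GENCODE M21 annotation were added up, the rows of an assembled locus (named MSTRG) were added up, and the genes of chromosomes X and Y were left out. This gave 20746 gene sums, 18947 of annotated genes and 1799 of assembled loci, out of 21890 sums over all chromosomes of the table. Of these, 4549 had 0 counts in every hippocampus library, and 10920 passed the filter on low counts and were tested.

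RNA of the hippocampus and the cerebral cortex was sequenced from C57BL/6J mice aged 7 months, 12 libraries in all. The 6 hippocampus libraries used here were 3 of WT mice and 3 of 5 × FAD mice, and are named by genotype and number. Mice were killed by cervical dislocation. The 5 × FAD strain carries human transgenes with familial Alzheimer mutations, among them APP with the Swedish, Florida and London mutations. They are driven in neurons by Thy1 elements, so amyloid here comes from overexpression. Libraries were stranded, depleted of ribosomal RNA and read from both ends. The library totals were 4862293, 5014389 and 4449939 counts in WT 1 to WT 3 and 3962768, 4415934 and 3996386 in 5 × FAD 1 to 5 × FAD 3.

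The table is not a table of mRNA. Of its 48033 rows, 222 are protein-coding transcripts, and the rows of protein-coding genes are otherwise retained-intron and processed transcripts, that is, RNAs of a gene that keep an intron or lack an open reading frame. A gene sum therefore stands for the non-coding RNA listed for a gene, and many of these transcripts share exons with the mRNA. Counts of near-identical genes (C4a and C4b, the H2-Q family, ribosomal protein genes) cannot be assigned with certainty to one of them. Rows of genes that mark the hippocampus were looked for. Of 13 dentate gyrus genes 8 were listed and 6 tested, with Calb1 at 22 to 54 counts and Prox1os at 65 to 97, and of 16 genes of the CA fields 7 were listed and 5 tested, with Zbtb20 at 424 to 585 counts. Prox1, Wfs1 and Fibcd1, which define these fields, have no row. The genes that define the choroid plexus and the striatum or thalamus were listed in 6 of 15 and 12 of 19 cases. Of these, only 4 and 6 were tested, and none reached an unadjusted p under 0.05. Their summed levels, in counts scaled to library size (CPM), spread widely. For the choroid plexus they were 52, 20 and 59 in the WT libraries against 17, 59 and 81 in the 5 × FAD libraries. For the striatum or thalamus they were 354, 200 and 245 against 150, 220 and 404. Whether the libraries differed in neighbouring tissue was not tested, since so few genes in groups this small cannot decide it.

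Sex-linked counts set the libraries apart before any autosomal result. Xist, the RNA of the inactive X chromosome of females, had 30468 counts in 5 × FAD 1 and 40844 in 5 × FAD 2, against 14 to 25 in the other 4 libraries. Genes of chromosome Y summed to 1722, 1603 and 1324 counts in the WT libraries and 1128 in 5 × FAD 3, and to 0 in 5 × FAD 1 and 5 × FAD 2. Both genotypes were described as holding males and females, and the counts of WT 1 to WT 3 go against that. Genotype and sex-linked counts are thus confounded in 5 × FAD 1 and 5 × FAD 2, and values are also given below from a fit with a term for Y-linked counts, in which the genotype difference rests on 5 × FAD 3 against the WT libraries. The libraries labelled 5 × FAD also varied more than those labelled WT. On the first principal component of the tested sums (28.29% of the variance) the WT libraries lay between -27.21 and -15.81, 5 × FAD 3 at -15.35, 5 × FAD 2 at 22.84 and 5 × FAD 1 at 58.02, and on the second 5 × FAD 3 stood apart at 59.59.

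Splicing regulators decide which introns and exons stay in an RNA, and Srrm4 is a neuron-specific member that promotes the inclusion of microexons. TET enzymes oxidise methylated cytosine in DNA, and ubiquitin-specific proteases remove ubiquitin from proteins. In brains with amyloid plaques, microglia and astrocytes are known to raise complement, interferon-response and MHC class I genes, and Trem2 is a microglial receptor that senses lipids around plaques. Retained-intron RNAs are often kept in the nucleus, which is why a library without poly(A) selection can hold many of them.

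The sequences shown come from the transcripts with the most counts in Srrm4, Usp12, Tet1, H2-Q7 and Trem2. Of these genes, edgeR called Srrm4, Usp12 and Tet1 (adjusted p under 0.05) but not H2-Q7 and Trem2. The sequences were read from the GENCODE M21 transcript sequences on GRCm38, with capitals for bases outside the exons of the gene's protein-coding transcripts. They are shown because only such bases tell the listed RNA from the mRNA. In Srrm4 the transcript ENSMUST00000150127 (6555 bases, retained intron, minus strand) has 3.07% of its bases outside coding-transcript exons, and the window chr5:116453654-116453773 spans the edge of its intron part and coding sequence. In Usp12 the processed transcript ENSMUST00000138202 (3914 bases, minus strand) has 7.77% outside, at its start, chr5:146758329-146758448. In Tet1 the processed transcript ENSMUST00000173081 (1505 bases, minus strand) has 11.2% outside, also at its start, chr10:62865185-62865304. In the H2-Q7 retained-intron transcript ENSMUST00000173788 (4209 bases, plus strand) the share is 64.8%, with the window chr17:35440125-35440244, and in the Trem2 retained-intron transcript ENSMUST00000132340 (4784 bases, plus strand) it is 78.1%, with the window chr17:48348397-48348516.
Srrm4: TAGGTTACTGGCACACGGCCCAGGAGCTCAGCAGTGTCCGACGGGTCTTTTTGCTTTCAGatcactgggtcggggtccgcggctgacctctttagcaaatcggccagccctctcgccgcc
Usp12: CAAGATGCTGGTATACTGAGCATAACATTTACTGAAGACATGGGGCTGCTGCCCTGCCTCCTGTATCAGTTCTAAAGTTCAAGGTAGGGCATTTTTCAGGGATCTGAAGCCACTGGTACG
Tet1: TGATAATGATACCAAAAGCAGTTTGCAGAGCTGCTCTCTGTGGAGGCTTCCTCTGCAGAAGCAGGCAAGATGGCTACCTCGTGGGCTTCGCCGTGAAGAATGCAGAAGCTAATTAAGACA
H2-Q7: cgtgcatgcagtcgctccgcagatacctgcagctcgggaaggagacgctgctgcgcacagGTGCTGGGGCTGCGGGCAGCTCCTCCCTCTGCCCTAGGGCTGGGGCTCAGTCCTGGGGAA
Trem2: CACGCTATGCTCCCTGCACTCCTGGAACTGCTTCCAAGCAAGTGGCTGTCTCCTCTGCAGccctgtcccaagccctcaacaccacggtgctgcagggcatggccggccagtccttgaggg

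In the comparison of genotypes, Srrm4 and the assembled loci MSTRG.11359 and MSTRG.17500 were higher in 5 × FAD mice, and Usp12, Tet1 and the assembled locus MSTRG.8241 were lower. These 6 of 10920 gene sums (0.0549%; 0.0275% higher and 0.0275% lower) had an adjusted p under 0.05 by edgeR's quasi-likelihood test. An unadjusted p under 0.05 was reached by 956 sums (8.75%), 535 of them higher (4.9%) and 421 lower (3.86%) in 5 × FAD mice. The study's screen, read as an unadjusted p under 0.05 and a log2 fold change of at least 1 in either direction, held 370 sums (3.39%), 220 higher and 150 lower. The libraries of the groups did not overlap for 1786 sums (16.4%), 894 higher (8.19%) and 892 lower (8.17%). The median log2 fold change of all tested sums was 0.03.

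Srrm4, on chromosome 5 from 116439275 to 116591817, gave 43, 49 and 43 counts in WT 1 to WT 3 against 798, 710 and 567 in 5 × FAD 1 to 5 × FAD 3. Every 5 × FAD library was far above every WT library. The sum was 9.77 ± 0.537 CPM (counts per 1000000, TMM-scaled; SD, n = 3) in WT and 171 ± 30.7 in 5 × FAD, 17.4-fold higher, with a log2 fold change of 4.12 (standard error 0.21, edgeR adjusted p = 0.00144). In the fit with the term for Y-linked counts it was 3.86 (edgeR adjusted p = 0.0034). In the cerebral cortex, however, the same sum was at 1016, 47 and 40 counts in the WT libraries against 37, 26 and 1095 in the 5 × FAD libraries, so both the low and the high level occurred within each genotype there. With all 12 libraries in one fit of 4 groups the hippocampus difference was no longer called (edgeR adjusted p = 0.378).

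Usp12, a deubiquitinase gene on chromosome 5 from 146734809 to 146795006, was counted 224, 409 and 206 times in the WT libraries and 9, 18 and 8 times in the 5 × FAD libraries. Its lowest WT library lay more than 10 times above its highest 5 × FAD library, and the log2 fold change was -4.39 (standard error 0.41, edgeR adjusted p = 0.0294). In the cortex Usp12 gave 186, 221 and 8 counts in WT 1 to WT 3 against 233, 12 and 296 in the 5 × FAD libraries, again with both levels in both genotypes. Tet1, on chromosome 10 from 62804570 to 62908996, is a sum of 1 row and was at 147, 140 and 97 counts in the WT libraries against 8, 2 and 3 in the 5 × FAD libraries. The groups did not overlap, and the log2 fold change was -4.65 (standard error 0.48, edgeR adjusted p = 0.0391). In the cortex Tet1 was at 108, 93 and 57 counts in the WT libraries against 5, 6 and 139 in the 5 × FAD ones, where only the third 5 × FAD library lay with WT. With the term for Y-linked counts, the hippocampus log2 fold changes were -4.89 for Usp12 and -5.15 for Tet1, neither called (edgeR adjusted p = 0.098 and 0.13).

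The assembled loci have no position in the table, so their place in the genome is not given and a locus on a sex chromosome could not be left out. MSTRG.17500 was counted 542, 593 and 491 times in the WT libraries and 1321, 1329 and 1594 times in the 5 × FAD libraries, for a log2 fold change of 1.57 (standard error 0.17, edgeR adjusted p = 0.0422) with no overlap of the groups. Its value with the term for Y-linked counts was 1.76 (edgeR adjusted p = 0.035). In the cortex it gave 618, 770 and 618 counts in WT 1 to WT 3 against 2035, 1894 and 2160 in the 5 × FAD libraries, and there too the log2 fold change was 1.57 (standard error 0.13, edgeR adjusted p = 0.0365). MSTRG.11359 was at 1, 0 and 0 counts in the WT libraries against 93, 51 and 58 in the 5 × FAD libraries. This is a ratio of 229 on pooled counts (exact 95% interval 40.6 to 9090, counting error only, edgeR adjusted p = 0.0294). With the term for Y-linked counts MSTRG.11359 was not called (edgeR adjusted p = 0.059). In the cortex it was at 0 in all WT libraries and at 26, 40 and 63 counts in the 5 × FAD ones, so the genotypes were apart in both regions. MSTRG.14838, just outside the threshold (edgeR adjusted p = 0.0561), showed the same arrangement with 0, 0 and 1 counts in the WT libraries against 47, 27 and 58 in the 5 × FAD ones in the hippocampus, and 0 in WT with 30, 39 and 82 in 5 × FAD in the cortex. MSTRG.8241 was counted 1294, 1376 and 1335 times in the WT libraries and 331, 409 and 373 times in the 5 × FAD libraries, for a log2 fold change of -1.67 (standard error 0.15, edgeR adjusted p = 0.0294). It too lost its call with that term (log2 fold change -1.63, edgeR adjusted p = 0.073). Its cortex counts were 697, 684 and 625 in the WT libraries against 642, 632 and 257 in the 5 × FAD ones, with only the third 5 × FAD library low.

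When each library was left out in turn, the log2 fold change of Srrm4 stayed between 3.98 and 4.23 and its edgeR adjusted p between 0.00197 and 0.0452. Without WT 1, WT 2 or WT 3, each of the other 5 sums lost its call (edgeR adjusted p between 0.0724 and 0.311) at log2 fold changes of -4.80 to -4.56 for Tet1, -4.56 to -4.05 for Usp12, -1.71 to -1.65 for MSTRG.8241 and 1.52 to 1.61 for MSTRG.17500, and without 5 × FAD 1 all of them but Tet1 did (0.0684 to 0.123). Without 5 × FAD 2, Tet1, MSTRG.8241 and MSTRG.17500 were not called (0.0615, 0.0524 and 0.0542), and without 5 × FAD 3, Tet1 was not (0.0595), while 25 sums in all were called.

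**Figure D1:**
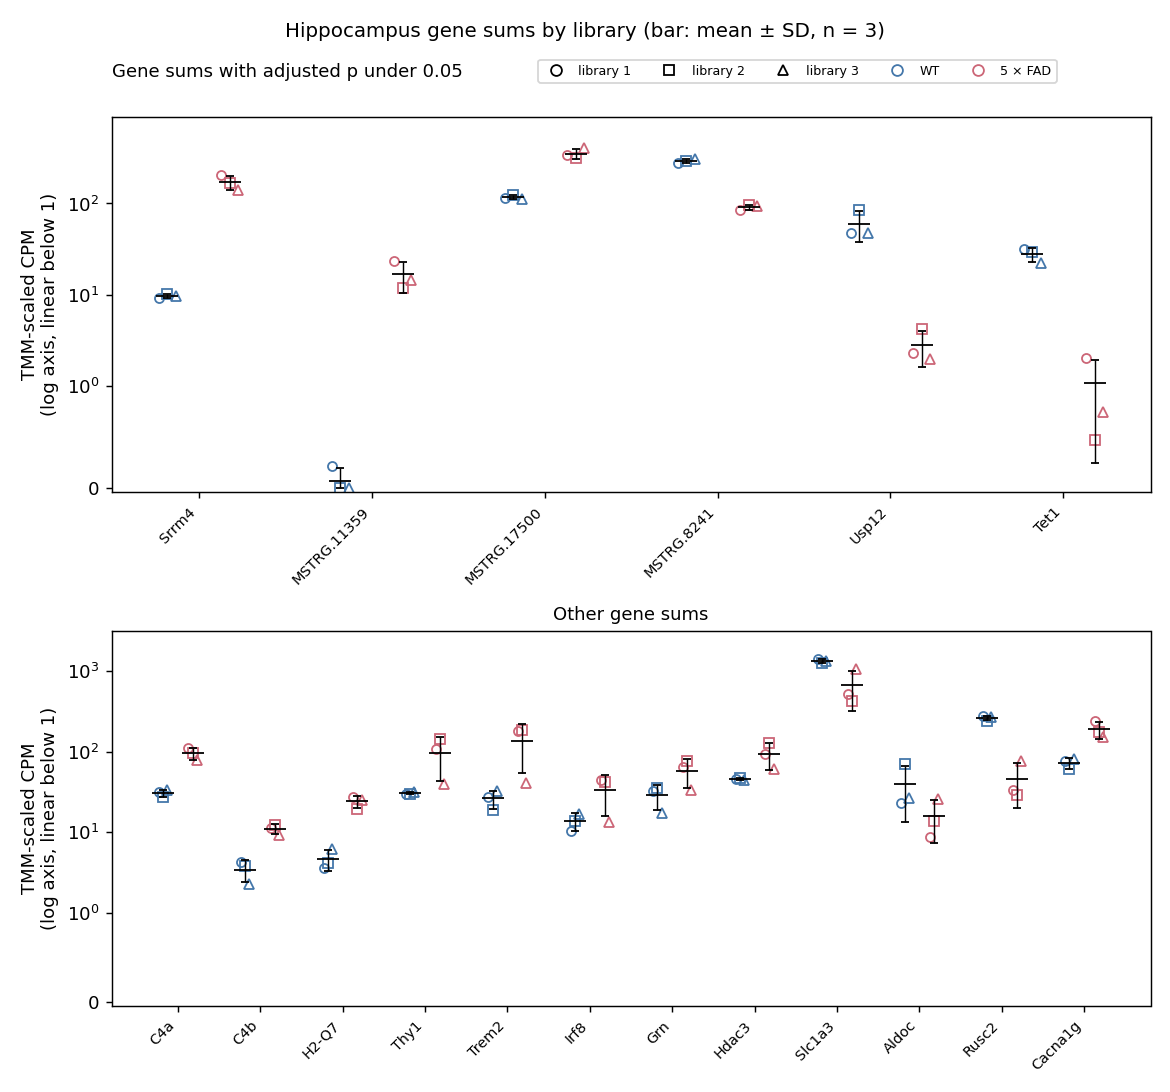
TMM-scaled CPM of gene sums (y axis, log scale that is linear below 1) in the 3 WT and 3 5 × FAD hippocampus libraries, 1 marker shape per library number, with a bar for the mean and its SD. The upper panel holds the 6 called sums, in which the groups are apart (Srrm4 at 9.77 ± 0.537 against 171 ± 30.7), and in the lower panel 5 × FAD 3 lies near the WT libraries for Thy1, Trem2, Irf8 and Grn but not for C4a, C4b and H2-Q7.

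Complement, interferon and MHC class I genes had the largest share of members with an unadjusted p under 0.05 among the 36 gene lists compared (chosen with earlier results known). Of 26 listed complement, interferon and MHC class I genes, 21 had a gene sum and 14 were tested. An unadjusted p under 0.05 was reached by 6 of these 14 (42.9%, beside 8.75% of all tested sums). All 6 were higher in 5 × FAD mice, and none had an edgeR adjusted p under 0.05. DESeq2, run as an alternative, gave an adjusted p of 1.15e-07 for C4a and 0.043 for C4b. The median log2 fold change of the list was 0.71 (0.53 with the term for Y-linked counts, in which 4 reached the unadjusted threshold), beside 0.03 for all sums. The summed level of the tested members was 139, 135 and 189 CPM in WT and 317, 284 and 323 CPM in 5 × FAD.

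C4a, a complement C4 gene on chromosome 17 from 34809092 to 34823464 that has no protein-coding transcript in the annotation, gave 147, 131 and 147 counts in WT 1 to WT 3 against 439, 412 and 318 in the 5 × FAD libraries. The groups did not overlap, with a log2 fold change of 1.64 (standard error 0.20, edgeR adjusted p = 0.0637; 1.37 with the term for Y-linked counts). Its neighbour C4b, which encodes complement component 4B and differs little from C4a in sequence, was at 20, 18 and 10 counts in the WT libraries against 45, 53 and 37 in the 5 × FAD libraries (log2 fold change 1.67, standard error 0.33, edgeR adjusted p = 0.387). In the cortex C4a was at 121, 146 and 86 counts in WT against 420, 262 and 354, without overlap, and C4b at 16, 6 and 17 against 49, 15 and 45, with 5 × FAD 2 inside the WT range. H2-Q7, an MHC class I gene outside the list, was counted 17, 20 and 27 times in the WT libraries and 108, 84 and 102 times in the 5 × FAD libraries, for a log2 fold change of 2.37 (standard error 0.30, edgeR adjusted p = 0.078; 2.45 with the term for Y-linked counts).

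Other members of the list are named after their values were seen. Tap1, which carries peptides to MHC class I molecules, gave 54, 33 and 85 counts in WT 1 to WT 3 against 148, 111 and 122 in the 5 × FAD libraries, without overlap (log2 fold change 1.31, edgeR adjusted p = 0.523). Tap2, its partner, was at 20, 1 and 19 counts in the WT libraries against 24, 19 and 314 in the 5 × FAD libraries, with 5 × FAD 3 far above the rest. Ifi35, an interferon-induced gene, had 0, 8 and 1 counts against 17, 12 and 25. H2-K1 was counted 22, 32 and 12 times in the WT libraries and 38, 27 and 29 times in the 5 × FAD libraries (0.71), with overlap, and Irf9 had a log2 fold change of -0.16.

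The genes of microglia were thinly covered: of 25 listed, 12 had a gene sum and 8 were tested, and Cx3cr1, P2ry12, Tmem119, Csf1r and Tyrobp have no row. Itgam, at 0 to 2 counts, and Aif1, at 2 to 11 counts, did not pass the filter. An unadjusted p under 0.05 was reached by 2 of 8 (25%, beside 8.75% of all tested sums), Trem2 and Irf8, both higher. The list's median log2 fold change was 0.72, but -0.26 with the term for Y-linked counts. Its summed level was 92, 104 and 109 CPM in WT, 347 and 428 CPM in 5 × FAD 1 and 5 × FAD 2, and 97 CPM in 5 × FAD 3. In whole tissue, fewer or more cells of a type and less or more RNA per cell cannot be told apart.

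Trem2 itself, on chromosome 17 from 48346401 to 48354147, gave 129, 91 and 142 counts in WT 1 to WT 3 against 714, 809 and 164 in the 5 × FAD libraries. The first and second 5 × FAD libraries were high and 5 × FAD 3 was next to the highest WT library, giving a log2 fold change of 2.38 (standard error 0.55, edgeR adjusted p = 0.459) and 0.64 with the term for Y-linked counts. Irf8, a transcription factor of microglia and macrophages, was at 48, 66 and 75 counts in the WT libraries against 178, 180 and 53 in the 5 × FAD libraries (log2 fold change 1.29, and -0.05 with that term). Ptprc, which encodes the leukocyte antigen CD45, was counted 146, 181 and 128 times in the WT libraries and 362, 570 and 85 times in the 5 × FAD libraries. The log2 fold change of Ptprc was 1.33, and -0.62 with the term. Trem2, Irf8 and Ptprc were thus high in 5 × FAD 1 and 5 × FAD 2, the libraries with Xist, and not in 5 × FAD 3. Genotype and sex cannot be told apart in these libraries.

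Of 25 genes of plaque-associated microglia, 13 had a sum and 6 were tested. Trem2 and Lpl reached an unadjusted p under 0.05 (33.3%, beside 8.75% of all tested sums). The median log2 fold change was 0.43 (0.33 with the term). Lpl, lipoprotein lipase, gave 38, 47 and 35 counts in WT 1 to WT 3 against 64, 39 and 80 in the 5 × FAD libraries, with overlap. Apoe, the lipid carrier that astrocytes and microglia secrete, was at 482, 470 and 503 counts in the WT libraries against 725, 493 and 282 in the 5 × FAD libraries (log2 fold change 0.23, standard error 0.33), with 5 × FAD libraries both above and below WT. Clec7a and Itgax, receptors that mark such microglia, had 0 to 7 counts and were not tested.

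Thy1, whose elements drive the transgenes, was counted 140, 144 and 139 times in the WT libraries and 423, 621 and 158 times in the 5 × FAD libraries. WT varied little (30.7 ± 0.96 CPM), while 5 × FAD 3 was close to WT and the other 5 × FAD libraries lay far above it, with a log2 fold change of 1.67 (standard error 0.43, edgeR adjusted p = 0.496) and 0.37 with the term for Y-linked counts. In the cortex Thy1 followed the same numbers, at 169, 202 and 161 counts in the WT libraries against 562, 467 and 157 in the 5 × FAD ones. Whether transgene reads are counted on Thy1 was not tested, and App has no row. Among 24 amyloid processing genes, 16 were tested and 3 (18.8%, beside 8.75% of all tested sums) had an unadjusted p under 0.05, Thy1 among them. Psenen, the smallest subunit of γ-secretase, gave 78, 66 and 73 counts in WT 1 to WT 3 against 10, 35 and 24 in the 5 × FAD libraries (log2 fold change -1.48, edgeR adjusted p = 0.506), without overlap. Mme, which encodes the amyloid-degrading protease neprilysin, had 15, 3 and 12 against 45, 35 and 16 (1.84). Aplp1, a homologue of App, had 18605 to 20919 counts in WT and 14449 to 18002 in 5 × FAD (-0.05).

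Of 31 Alzheimer risk genes, 19 were tested and 5 (26.3%, beside 8.75% of all tested sums) had an unadjusted p under 0.05. Trem2, Zcwpw1 and Grn were higher and Celf1 and Clu lower, none with an edgeR adjusted p under 0.05. Zcwpw1, which encodes a histone reader, was at 22, 20 and 15 counts in the WT libraries against 43, 35 and 30 in the 5 × FAD libraries (log2 fold change 1.10, edgeR adjusted p = 0.506; 0.86 with the term for Y-linked counts). Grn, the progranulin gene of the lysosome, had 153, 172 and 77 counts against 252, 332 and 135, with a log2 fold change of 1.02, and of 0.23 with that term. Clu, the astrocytic chaperone clusterin, was counted 82, 74 and 74 times in the WT libraries and 39, 43 and 55 times in the 5 × FAD libraries (-0.56). With the term, 1 of the 19 reached the unadjusted threshold.

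Astrocyte genes were centred near 0. Of 23 listed, 16 had a sum and 13 were tested, and the median log2 fold change was 0.04. An unadjusted p under 0.05 was reached by 2 (15.4%, beside 8.75% of all tested sums), both lower. Slc1a3, the glutamate transporter GLAST, gave 6712, 6110 and 5908 counts in WT 1 to WT 3 against 2042, 1808 and 4256 in the 5 × FAD libraries (log2 fold change -1.02, standard error 0.34, edgeR adjusted p = 0.523; -0.35 with the term for Y-linked counts). Aldoc, the aldolase of astrocytes, had 109, 340 and 116 counts against 34, 59 and 103 with WT 2 far above the rest (log2 fold change -1.33, and -0.65 with the term). Slc1a2, the main glutamate transporter, had a log2 fold change of -0.02 (standard error 0.25), and Gfap, the filament protein of reactive astrocytes, was at 0 in all WT libraries and at 7, 0 and 4 counts in the 5 × FAD ones. Aqp4 has no row.

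Among 12 tested oligodendrocyte and myelin genes, 2 (16.7%, beside 8.75% of all tested sums) had an unadjusted p under 0.05. Both were higher, while the list median was -0.09 (0.13 with the term for Y-linked counts). Cnp, a myelin enzyme, was at 1171, 1069 and 716 counts in the WT libraries against 1665, 1448 and 1139 in the 5 × FAD libraries (log2 fold change 0.72, edgeR adjusted p = 0.523), and Fa2h, which makes a myelin lipid, had 31, 61 and 67 against 72, 188 and 85. In CPM neither overlapped between the groups. Of 9 endothelial and vascular genes 1 (11.1%) had an unadjusted p under 0.05, Vtn (48, 60 and 171 counts against 249, 202 and 177). Of the 4 choroid plexus, 2 blood and 6 striatum and thalamus genes tested none had. The striatum and thalamus genes had a median log2 fold change of -0.02 (0.70 with the term for Y-linked counts). Kl, of the choroid plexus, was counted 145, 79 and 147 times in the WT libraries and 27, 141 and 190 times in the 5 × FAD libraries.

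Neuronal gene groups were centred near 0, and their shares stand beside 8.75% of all tested sums with an unadjusted p under 0.05. Of 27 tested genes of glutamate receptors and the postsynaptic density, 1 was higher and 1 lower at an unadjusted p under 0.05 (7.41%, median -0.10). Grm4, a presynaptic metabotropic receptor, gave 18, 16 and 11 counts in WT 1 to WT 3 against 77, 33 and 29 in the 5 × FAD libraries (log2 fold change 1.82, standard error 0.47, edgeR adjusted p = 0.496). Camk2a, the kinase of synaptic plasticity, was at 5250, 790 and 699 counts in the WT libraries against 519, 521 and 657 in the 5 × FAD libraries, for a log2 fold change of -1.79 with WT 1 far above the rest. Of 27 presynaptic genes 1 was higher and 2 lower (11.1%, median -0.14). Pclo, a scaffold of the active zone, was counted 10499, 9548 and 5647 times in the WT libraries and 111, 720 and 2836 times in the 5 × FAD libraries (log2 fold change -2.61, standard error 0.97; -1.38 with the term for Y-linked counts), while in the cortex it gave 2068, 2329 and 113 counts in WT 1 to WT 3 against 496, 6991 and 4501 in the 5 × FAD libraries. Sv2b, a synaptic vesicle protein gene, had 240, 253 and 191 against 106, 153 and 136 (-0.61), and Slc17a7, the vesicular glutamate transporter, had 3902, 1666 and 1533 against 14888, 4687 and 1777, with 5 × FAD 3 inside the range of WT.

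Of 22 GABA and interneuron genes only Gabrd, a receptor subunit of granule cells, had an unadjusted p under 0.05 (4.55% of the list, median 0.17). Gabrd had 263, 159 and 199 counts in the WT libraries against 344, 268 and 246 in the 5 × FAD ones. Of 32 voltage-gated ion channel genes 2 were higher and 2 lower (12.5%, beside 8.75% of all tested sums). Cacna1g, a T-type calcium channel gene, was at 356, 290 and 359 counts in the WT libraries against 949, 746 and 612 in the 5 × FAD libraries (log2 fold change 1.38, standard error 0.23, edgeR adjusted p = 0.251), with no overlap. Kcnma1, the BK potassium channel gene, was counted 2013, 1973 and 1699 times in the WT libraries and 1077, 1214 and 1213 times in the 5 × FAD libraries (-0.52, standard error 0.15). In the cortex Cacna1g ran from 274 to 1304 counts in WT and from 366 to 672 in 5 × FAD, with a log2 fold change of -0.64 (standard error 0.44). Of 21 synaptic adhesion genes Ntng1 was lower (294, 378 and 293 counts against 171, 182 and 186) and Cntn6 higher (14, 13 and 9 against 26, 19 and 19). These were 9.52% of the list, which had a median of -0.21. None of 8 activity-dependent immediate early genes, 9 neocortex genes or 5 CA field genes reached the unadjusted threshold, and 1 of 6 dentate gyrus genes did, Tdo2 (23, 15 and 22 counts against 7, 6 and 5). Of 16 clock genes 1 was higher and 1 lower (12.5%), the latter Bhlhe41 (17, 18 and 24 against 5, 3 and 10). Its log2 fold change was -1.51, and -0.77 with the term for Y-linked counts.

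Of 56 tested splicing regulators, 6 were higher and 1 lower at an unadjusted p under 0.05 (12.5%, beside 8.75% of all tested sums). Srrm4 alone had an edgeR adjusted p under 0.05. The list's median log2 fold change was 0.15, and -0.11 with the term for Y-linked counts. U2af2, which binds the 3′ splice site, gave 475, 494 and 319 counts in WT 1 to WT 3 against 583, 671 and 466 in the 5 × FAD libraries (log2 fold change 0.60, edgeR adjusted p = 0.529). Among those named after their values were seen, Srsf1 had 52, 49 and 51 counts against 130, 59 and 62, Srsf2 had 727, 624 and 724 against 1076, 1038 and 651, Srrm3, the paralogue of Srrm4, had 224, 224 and 182 against 310, 201 and 316, and Celf1 had 52, 58 and 54 against 27, 36 and 26. Apart from Srrm4 these differences were within 1 log2 unit.

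Of 13 tested DNA methylation genes 3 (23.1%, beside 8.75% of all tested sums) had an unadjusted p under 0.05. Besides Tet1, Tet2 was at 1430, 1818 and 1341 counts in the WT libraries against 792, 865 and 786 in the 5 × FAD libraries (log2 fold change -0.72, standard error 0.16, edgeR adjusted p = 0.438), with every 5 × FAD library below every WT library. Tet3 had a log2 fold change of 0.31 (standard error 0.19). Dnmt1, the maintenance methyltransferase, was counted 30, 43 and 19 times in the WT libraries and 45, 54 and 56 times in the 5 × FAD libraries (0.94), and Dnmt3a had a log2 fold change of 0.05. Of 36 ubiquitin-specific proteases 5 were higher and 2 lower (19.4%, beside 8.75% of all tested sums), Usp12 with an edgeR adjusted p under 0.05. Usp38 gave 25, 34 and 27 counts in WT 1 to WT 3 against 57, 58 and 53 in the 5 × FAD libraries (log2 fold change 1.15, standard error 0.25, edgeR adjusted p = 0.434), and Usp7, a regulator of p53, had 1914, 1426 and 1182 against 940, 737 and 883 (-0.63). Usp48, at 20, 25 and 34 counts in the WT libraries against 103, 626 and 9 in the 5 × FAD ones, showed how far single libraries could part within a group.

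Of 55 histone modifier genes 3 were higher and none lower (5.45%). Hdac3, a histone deacetylase, was at 214, 227 and 197 counts in the WT libraries against 365, 551 and 243 in the 5 × FAD libraries (log2 fold change 1.03; 0.40 with the term for Y-linked counts), and Hdac1 had 147, 133 and 124 against 153, 181 and 245 (0.70; 1.07 with the term). Of 145 zinc finger Zfp genes 5 were higher and 2 lower (4.83%, below the 8.75% of all sums), Zfp697 among them with 379, 448 and 442 counts against 218, 271 and 137. Crem, a cAMP-response transcription factor gene outside the lists, was counted 56, 65 and 53 times in the WT libraries and 13, 23 and 18 times in the 5 × FAD libraries (log2 fold change -1.51, edgeR adjusted p = 0.383).

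More ribosomal protein genes lay above than below 0: of 62 tested, 7 were higher and none lower at an unadjusted p under 0.05 (11.3%, beside 8.75% of all sums). A log2 fold change above 0 was found in 48 of 62, beside 5791 of 10920 for all sums and 4415 of 7496 for protein-coding genes. The median was 0.23 (0.08 for protein-coding genes), or 0.07 with the term for Y-linked counts (0.06 for protein-coding genes). Rpl18 gave 23, 97 and 38 counts in WT 1 to WT 3 against 142, 299 and 313 in the 5 × FAD libraries (log2 fold change 2.44, standard error 0.54, edgeR adjusted p = 0.438), and Rpl11 had 242, 223 and 238 against 352, 316 and 427 (0.82). The counts of WT 2 for Rpl18 lay closest to 5 × FAD. Mitochondrial respiratory chain genes were centred near 0 (60 tested, 3 higher and 2 lower, 8.33%, median 0.06). Among them Uqcr10 was at 111, 105 and 92 counts in the WT libraries against 23, 49 and 54 in the 5 × FAD ones. Of 44 lysosome and autophagy genes, Ctsc and Grn were higher (4.55%, median 0.12), and of 23 heat shock and unfolded protein response genes Hsp90ab1 was lower (313, 241 and 255 counts against 108, 150 and 188; log2 fold change -0.68, and -0.31 with the term) and Hsp90b1 higher (129, 142 and 133 against 168, 160 and 170).

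**Figure D2:**
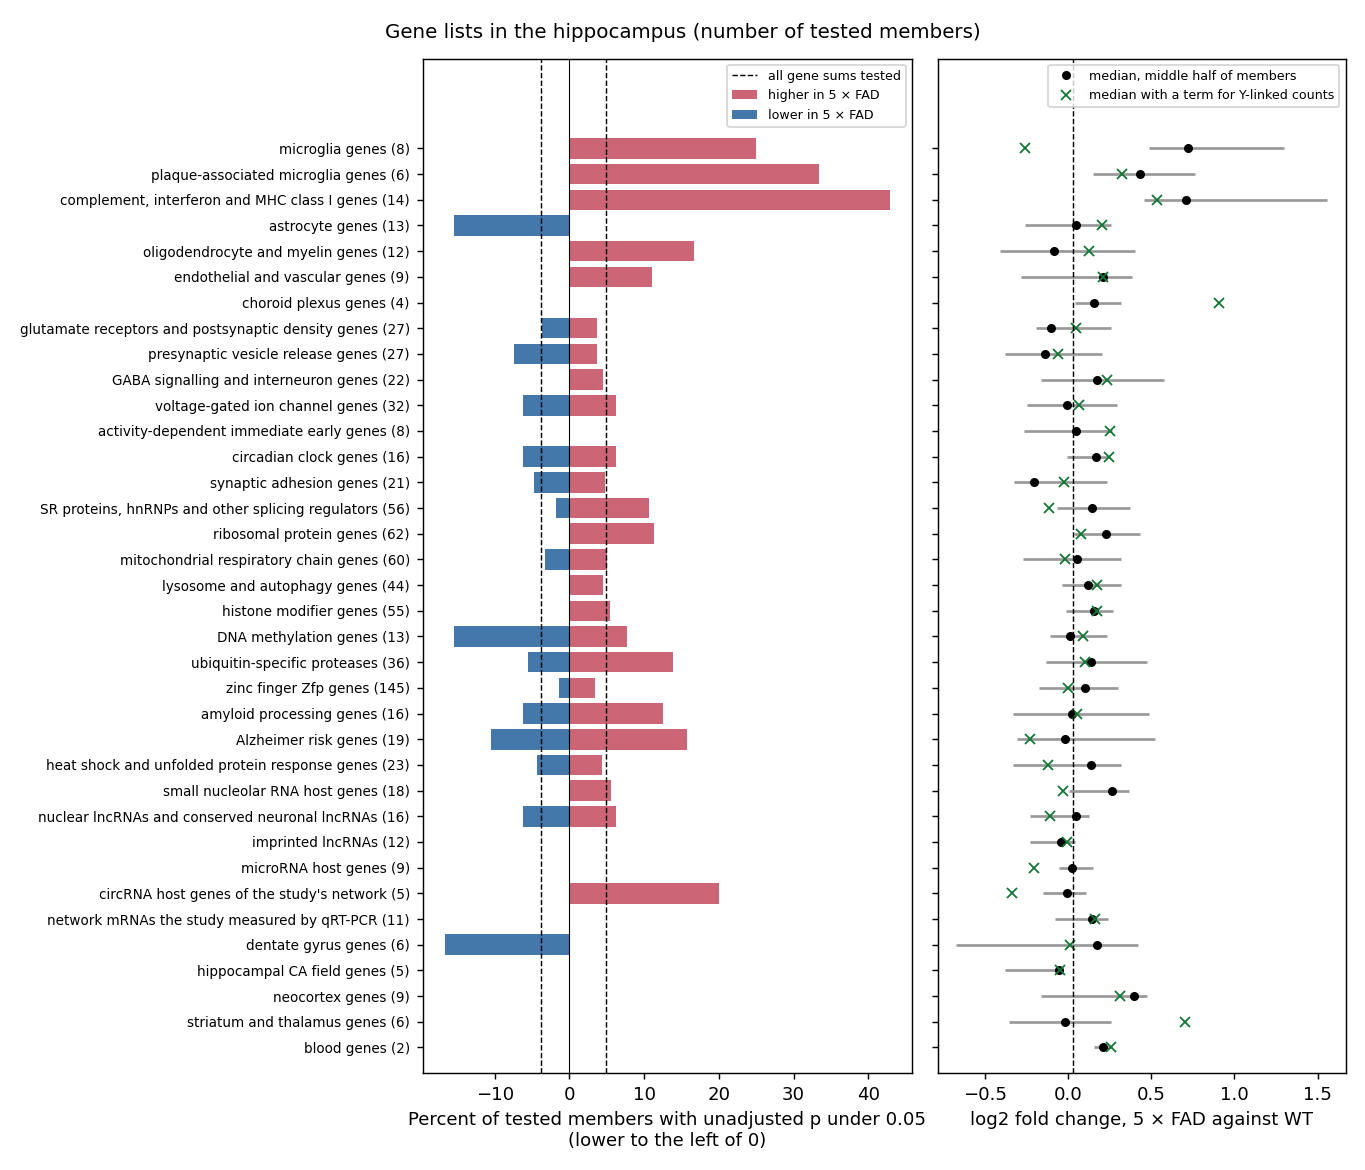
Left, percent of the tested members of each of the 36 gene lists with an unadjusted p under 0.05, higher in 5 × FAD to the right of 0 and lower to the left, with dashed lines for all tested sums (4.9% and 3.86%). Right, the median log2 fold change of each list with the interquartile range of its members, and a cross for the median with the term for Y-linked counts. Complement, interferon and MHC class I genes stand farthest right on the left side (42.9%), and the cross of the microglia genes lies at -0.26 against a median of 0.72.

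Among annotated lncRNAs, Gm26917 on chromosome 17 was at 38525, 41911 and 39650 counts in the WT libraries against 69595, 55747 and 49014 in the 5 × FAD libraries (log2 fold change 0.72, standard error 0.18, edgeR adjusted p = 0.496), without overlap. The antisense RNA Gm13054 had 22, 19 and 15 counts against 67, 82 and 81 (log2 fold change 2.21, standard error 0.26, edgeR adjusted p = 0.0561), and in the cortex 106, 98 and 64 against 99, 16 and 105. Tug1, a conserved lncRNA of the nucleus and cytoplasm, was counted 3542, 3338 and 2865 times in the WT libraries and 1678, 2629 and 1236 times in the 5 × FAD libraries (-0.64, and -1.19 with the term for Y-linked counts). Malat1, which coats nuclear speckles, took 7.34% to 9.41% of all counts, with a log2 fold change of 0.12 (standard error 0.15). Neat1, the scaffold of paraspeckles, was at 0.36 (standard error 0.16), and Meg3, a maternally expressed lncRNA, at 0.02 (standard error 0.21; 0.42 with the term for Y-linked counts), where 5 × FAD 1 and 5 × FAD 2 were below and 5 × FAD 3 above the WT libraries. Of 18 small nucleolar RNA host genes only Epb41l4aos had an unadjusted p under 0.05 (44, 60 and 58 counts against 119, 75 and 93; list median 0.26, and -0.03 with the term for Y-linked counts). Of 16 nuclear and conserved neuronal lncRNAs 2 did (12.5%), and of 12 imprinted lncRNAs and 9 microRNA host genes none did. The share was 5.56% for the small nucleolar RNA host genes, and all these shares stand beside 8.75% of all tested sums.

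In the fit without the term for Y-linked counts, the lists of genes that the study followed in its circRNA network had medians near 0. Of the 5 host genes of its circRNAs, 1 (20%, beside 8.75% of all tested sums) had an unadjusted p under 0.05. This was Dock3, a guanine nucleotide exchange factor of neurons. It had 416, 484 and 428 counts in the WT libraries against 729, 625 and 498 in the 5 × FAD ones (log2 fold change 0.66, edgeR adjusted p = 0.523). The median of the host genes was -0.01, and -0.34 with the term for Y-linked counts. Of 16 mRNAs that it measured by qRT-PCR, 11 were tested by their non-coding rows and none reached the threshold (median 0.14). Creb1, for example, gave 208, 193 and 191 counts in WT 1 to WT 3 against 135, 258 and 159 in the 5 × FAD libraries (0.07, standard error 0.24).

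Gene types differed in the direction of their sums. Of 7496 tested sums of protein-coding genes, 434 were higher and 218 lower at an unadjusted p under 0.05, and the median log2 fold change was 0.08. Assembled loci went the other way, with 43 higher and 120 lower of 1725 and a median of -0.11, and so did lincRNA genes, with 17 higher and 36 lower of 597 and a median of -0.12. Antisense genes were even (19 higher, 21 lower of 452). In the fit without the term for Y-linked counts, the share of sums under the threshold was alike in these types (8.7%, 9.45%, 8.88% and 8.85%, beside 8.75% overall). These counts were not compared by a test. With all 12 libraries in one fit, 640 sums were higher and 597 lower at that threshold, of 11683 tested. Among them were 246 assembled loci and 792 protein-coding genes, and shares by type were not worked out for that fit. With the term for Y-linked counts the medians were 0.06 for protein-coding genes, -0.12 for assembled loci and -0.10 for lincRNA genes.

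When rows were added up per gene and transcript type, 7 of 12522 sums (0.0559%) had an adjusted p under 0.05 and 1041 (8.31%) an unadjusted p under 0.05. Retained-intron sums were higher in 344 and lower in 150 of 6113 cases (median log2 fold change 0.09), and processed transcripts in 141 and 126 of 3146 (0.03). A total of 1577 genes had a tested sum of both kinds, with medians of 0.05 for the retained-intron and 0.01 for the processed sums. Of these genes, 847 had the same sign in both sums. An unadjusted p under 0.05 was reached by 122 of their retained-intron sums and 141 of their processed sums. Both sums of a gene reached it in 22 genes, 15 in the same and 7 in opposite directions. Whether this overlap or this split went beyond what those numbers give was not tested. Among the same were C4a (1.62 for retained introns and 1.63 for processed transcripts), Fcgr2b, an Fc receptor gene of microglia (1.38 and 1.37), Thy1 (1.45 and 1.99) and Tspan3 (1.47 and 1.64). Among the opposite were Auts2, an activator of neuronal genes (0.51 for retained introns and -1.29 for processed transcripts), Wdr47 (1.28 and -0.86), Sergef (-0.81 and 1.16) and Gabarap, an autophagy gene (-0.83 and 0.90). These genes were named after their values were seen, and none of their adjusted p-values was under 0.05.

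As shares of all counts summed, lincRNA rows took 14.3%, 13.6% and 13.8% in WT 1 to WT 3 and 16.7%, 15.03% and 15.1% in 5 × FAD 1 to 5 × FAD 3, a mean of 13.9% ± 0.322 against 15.6% ± 0.949 (SD, n = 3). The groups did not overlap, but with 3 libraries against 3 the two-sided exact permutation test cannot go below 0.1, which it gave here (0.333 after Benjamini-Hochberg adjustment over 10 types). Assembled loci took 39.5% ± 1.68 in WT and 36.3% ± 1.90 in 5 × FAD (exact permutation p = 0.1, adjusted 0.333), and retained-intron rows 34.4% ± 1.03 and 36.0% ± 0.970 (exact permutation p = 0.2, adjusted 0.5). The lincRNA difference of 1.70 percentage points was 0.93 without Malat1, and 0.26 without Malat1, Gm26917 and Gm42418 (exact permutation p = 0.6). Malat1 (0.908 points) and Gm26917 (0.595 points) carried most of it. Gm42418 held 0.049 points, less than Gm7292 with 0.098.

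**Figure D3:**
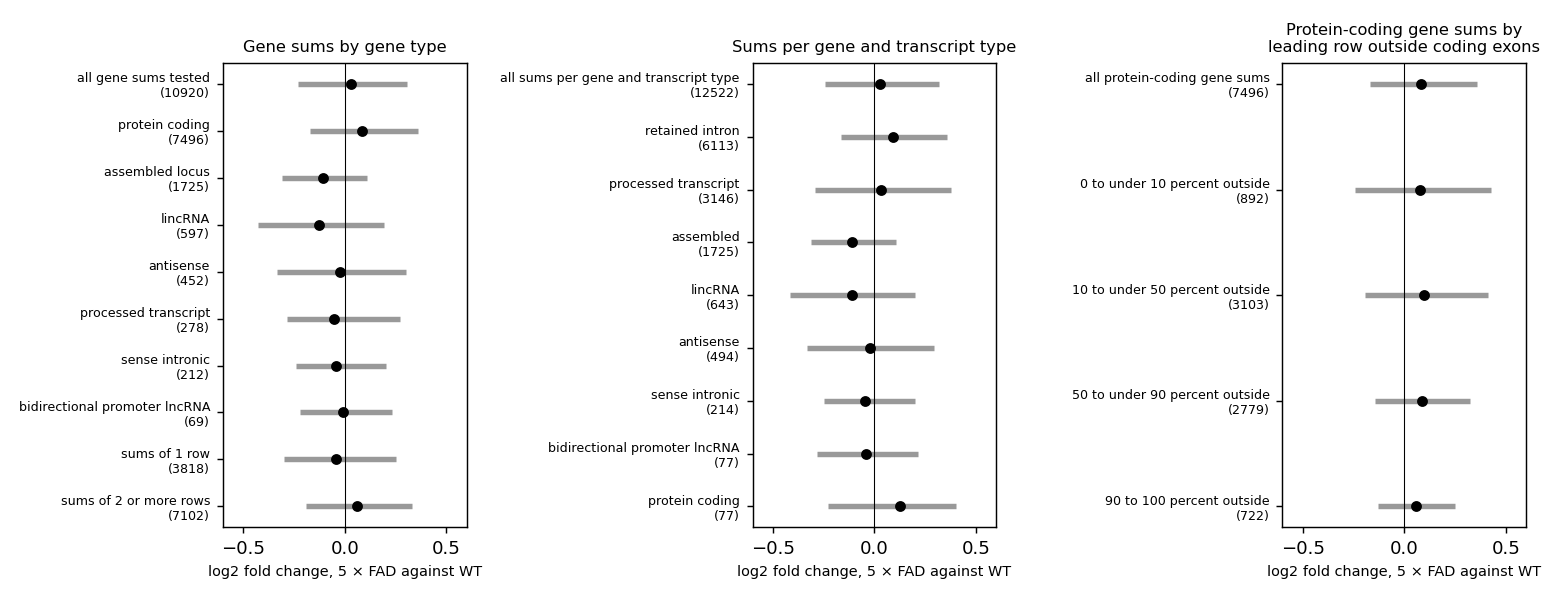
Median (point) and interquartile range (bar) of log2 fold changes, 5 × FAD against WT, of gene sums by gene type, of sums per gene and transcript type, and of protein-coding gene sums by the percent of the leading row's bases outside coding-transcript exons, each with its number of sums. Protein-coding genes (0.08) lie to the right of 0 and assembled loci (-0.11) and lincRNA genes (-0.12) to the left, and the bars narrow as more of the leading row lies outside coding exons.

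How much of the measured RNA could be told from mRNA was looked at for every tested sum of a protein-coding gene. The leading row, the one with the most counts, held a median of 71.84% of a sum, and a median of 46.87% of its bases lay outside the exons of the gene's protein-coding transcripts. Among 892 genes whose leading row had under 10% of its bases outside, 11.2% had an unadjusted p under 0.05. The share was 10.4% of 3103 genes between 10% and 50%, 6.84% of 2779 between 50% and 90%, and 5.54% of 722 at 90% or more. The interquartile range of the log2 fold changes narrowed in the same order, from -0.24 to 0.43 in the first group to -0.13 to 0.25 in the last. The median number of counts per gene over the 6 libraries was 587, 478, 633 and 843 in these groups, and the part of depth in this order was not tested. Srrm4 (3.07%), Usp12 (7.77%), Pclo (2.09%) and Rusc2 (0%) belong to the group under 10%, and H2-Q7 (64.8%), Trem2 (78.1%) and Irf8 (93.5%) to the groups above 50%.

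Within a sum, rows could change places. MSTRG.17500 is the sum of 2 assembled transcripts: the first was at 542, 593 and 491 counts in the WT libraries against 6, 77 and 458 in the 5 × FAD libraries, and the second had none in WT but 1136 to 1315 in every 5 × FAD library. Left to the first transcript alone, the log2 fold change of the locus was -1.39 and not 1.57. MSTRG.8241 moved in the same way, since its second transcript went from 1294, 1376 and 1335 counts to 0, 77 and 134 while the first went from 0 in each WT library to 331, 253 and 171. In Auts2, with 13 rows, the gene sum was 3734, 3590 and 3255 counts in the WT libraries against 2779, 2059 and 2372 in the 5 × FAD ones (log2 fold change -0.36, standard error 0.18, edgeR adjusted p = 0.603). Without the row that was at 0 in every 5 × FAD library and at 1473 to 1706 counts in WT, the log2 fold change of Auts2 was 0.48. In Rusc2, a regulator of vesicle traffic, most of the gap between 1289, 1159 and 1198 counts in the WT libraries and 132, 125 and 306 in the 5 × FAD ones (-2.51, standard error 0.38, edgeR adjusted p = 0.181; -1.78 with the term for Y-linked counts) lay in 1 of 7 rows, a processed transcript with 1090, 961 and 982 counts in the WT libraries against 11, 20 and 46 in the 5 × FAD ones. In Cacna1g, the row ENSMUST00000152811 went from 119, 36 and 128 to 617, 492 and 220 counts, while ENSMUST00000142190 was counted 129, 126 and 128 times in the WT libraries and 132, 115 and 202 times in the 5 × FAD libraries.

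**Figure D4:**
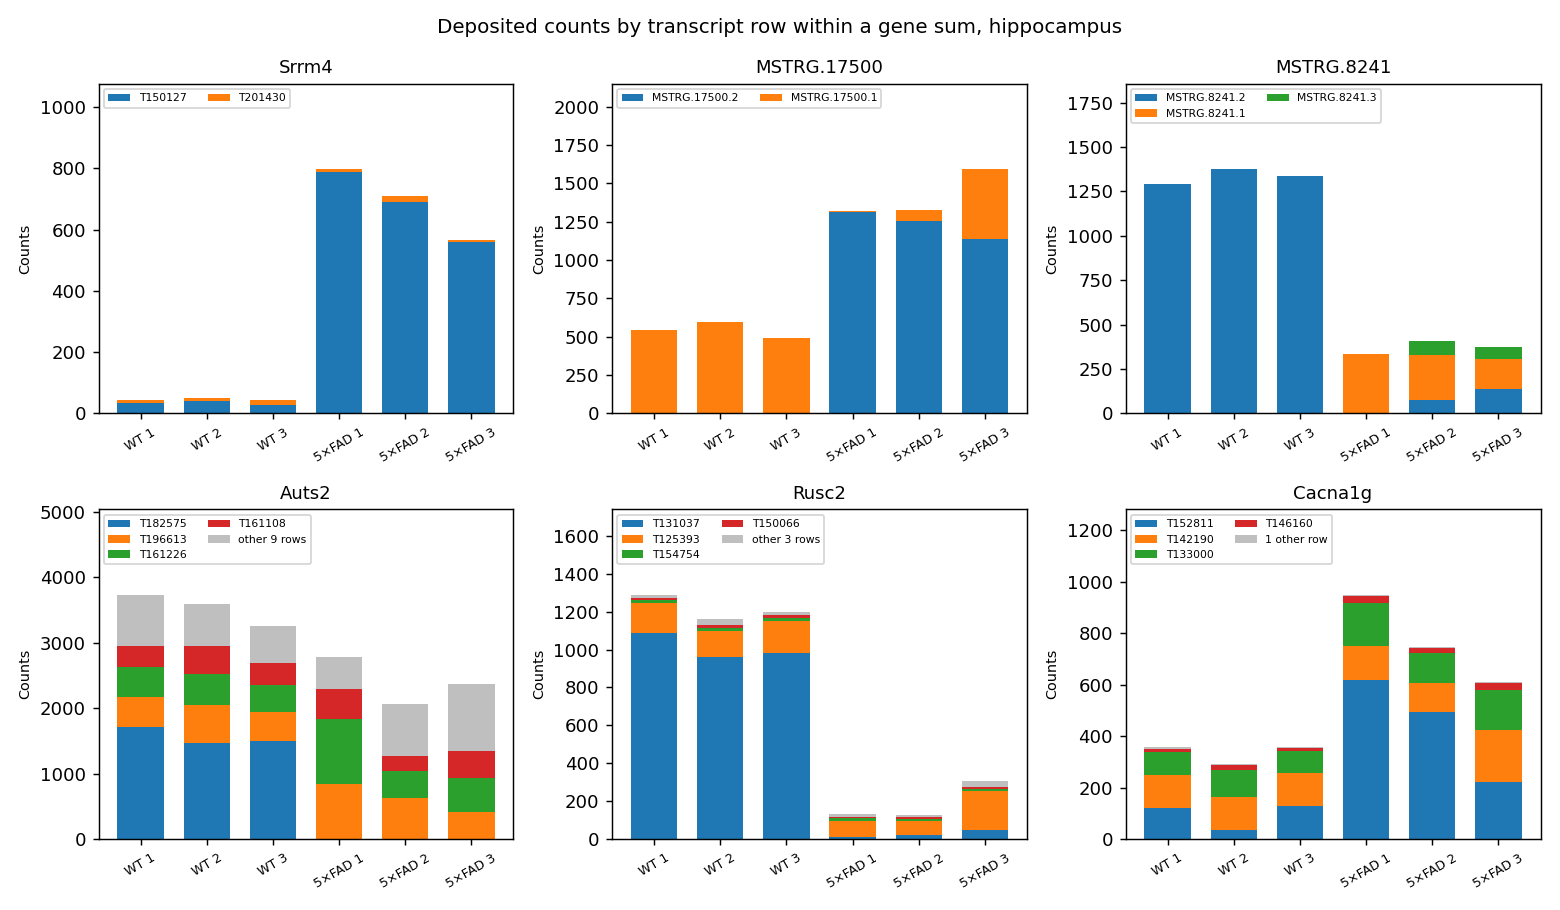
Deposited counts (y axis) in the 6 hippocampus libraries, stacked by transcript row (T with the last digits of the Ensembl transcript number, or the assembled transcript's name) for 6 gene sums. In MSTRG.17500 and MSTRG.8241 different rows fill the sums of the 2 genotypes, in Srrm4, Rusc2 and Cacna1g 1 row carries most of the difference, and in Auts2 a row of 1473 to 1706 counts in WT is missing from 5 × FAD.

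The library labels do not state whether hippocampus and cortex came from the same mice, so the cortex libraries cannot be taken as other animals. Xist and Y-linked counts parted the libraries of both regions by the same numbers. None of 11683 sums had an adjusted p under 0.05 for a test of unequal genotype differences in both regions by edgeR (smallest adjusted p 0.617, or 0.483 with at least 10 counts in every library), and 820 (7.02%) had an unadjusted p under 0.05. The difference between the regions was 4.09 for Srrm4 (standard error 1.93), -4.78 for Usp12 (standard error 1.44), 2.01 for Cacna1g (standard error 0.54) and -2.29 for Rusc2 (standard error 0.68). For C4a it was 0.11 (standard error 0.25), for MSTRG.17500 -0.01 (standard error 0.20) and for H2-Q7 0.85 (standard error 0.50). C4a and H2-Q7 had cortex log2 fold changes of 1.53 (standard error 0.18) and 1.52 (standard error 0.39), and every 5 × FAD library of the cortex was above every WT library for both. Srrm4 and Usp12 each took a high and a low level within both genotypes of the cortex, where their standard errors were 1.63 and 1.12.

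**Figure D5:**
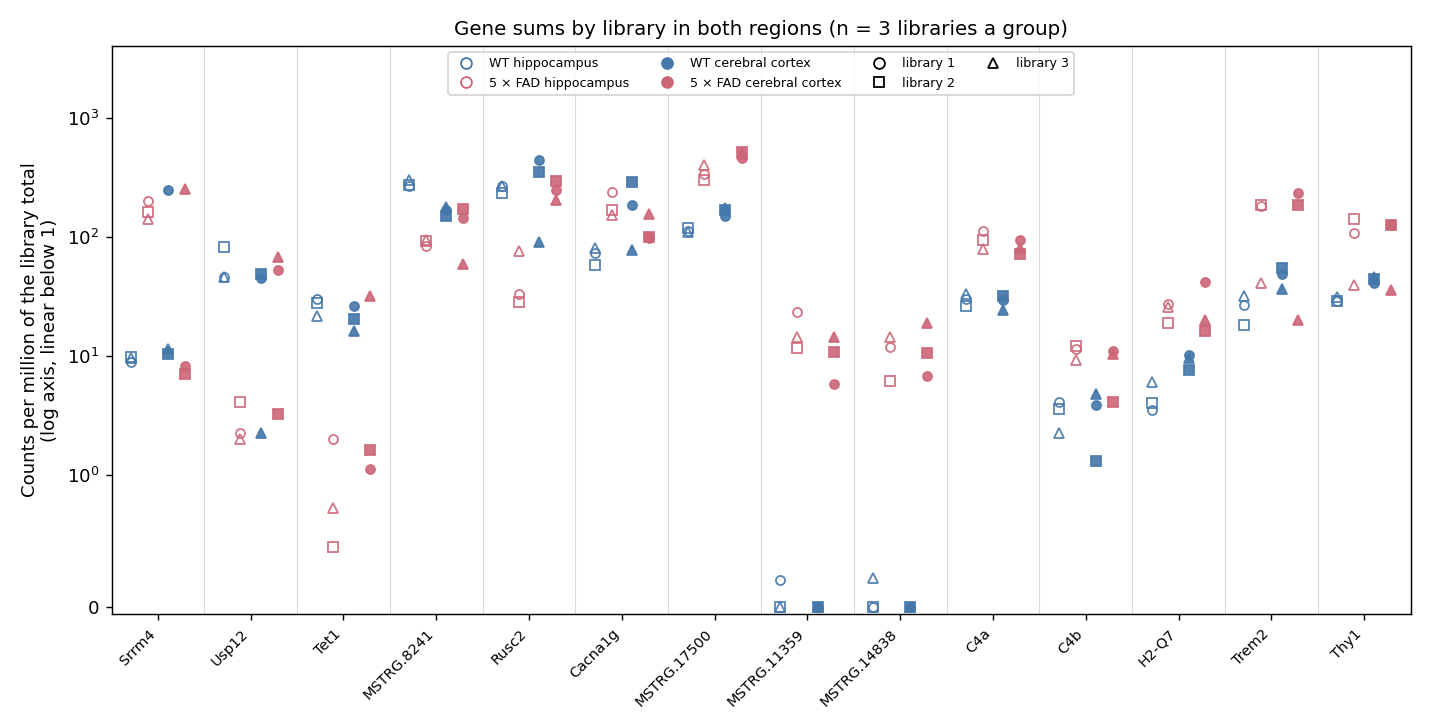
CPM of the library total (y axis, log scale that is linear below 1) for 14 gene sums in each library of the hippocampus (open) and the cerebral cortex (filled), WT in blue and 5 × FAD in red, with 1 marker shape per library number. MSTRG.17500, MSTRG.11359, MSTRG.14838, C4a and H2-Q7 part the genotypes in both regions, while the cortex libraries of the genotypes overlap for Srrm4, Usp12, Tet1, MSTRG.8241, Rusc2 and Cacna1g, and Trem2 and Thy1 lie far from the other 5 × FAD libraries in 5 × FAD 3 of both regions.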

How the data were processed

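The members and the gene lists were chosen with earlier results of these data known. Library labels gave genotype and region, and the number came from the code in each label. A shared number joins different animals of the genotypes. The authors deposited whole-number counts per transcript, not normalized, after ribosomal RNA depletion and trimming (Trimmomatic 0.36 and edgeR are named in the submitters' processing notes). The program that counted reads and the genome build are not given in the sources used here. All 12 columns were used and 0 were left out. Rows were matched to GENCODE M21 on GRCm38. The 225 Ensembl rows not found there (0.189% to 0.246% of a library's counts) and the genes of chromosomes X and Y were left out, and 45438 rows were summed.

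The test was that of edgeR 4.0.16 run in R 4.3.3 (filterByExpr, TMM, glmQLFit, glmQLFTest, Benjamini-Hochberg, threshold 0.05), only the 6 hippocampus libraries entering the fit. Standard errors are the log2 fold change divided by the square root of F. DESeq2 1.42.0 was an alternative, as were other scalings, filters, row choices, a replicate block and leaving out each library. A term for Y-linked counts marks libraries with 3 or fewer of them. Shares were compared by exact permutation with scipy 1.17.1. The functions were tested on simulated counts. Replicate pairs differed by more than counting noise (chi-square per degree of freedom 18.23 to 35.85). The same numbers in the groups did not deviate together (r between -0.07 and 0.04 over 7283 sums). Totals of 3962768 to 5014389 counts set the precision, 3 counts being 0.598 to 0.757 CPM, and intervals cover counting error only. Separate animals are stated by the study, so p-values measure the spread between these mice.

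The genes named were all called sums, the 8 with the smallest p in each direction among screened sums without overlap, the 2 with the smallest p under 0.05 in each list, the first of each gene type, and genes the study follows. Other genes were named after their values were seen. The results of some genes are not reported here.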

Additional observations from a re-analysis of the deposited data

Results flagged for a closer look

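Xist lies on chromosome X and was left out of the sums, but its counts stood far above those of the WT libraries in some of the libraries compared. It had 30468 counts in 5 × FAD 1 and 40844 in 5 × FAD 2, against 16, 19 and 25 in WT 1 to WT 3 and 14 in 5 × FAD 3. Groups of 3 libraries are too small for the test of single outlying libraries, and no gene sum had a difference between the regions past the adjusted threshold.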

How the results depend on the processing

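Among 10920 sums, 3 were called higher and 3 lower. Several sums named above without an edgeR call had a DESeq2 adjusted p under 0.05. They include C4a (1.15e-07), C4b (0.043), H2-Q7 (7.75e-07), Rusc2 (2.25e-08), Cacna1g (0.00021), Trem2 (0.0014), Thy1 (0.028) and Tet2 (0.033). Others, such as Irf8 (0.31) and Slc1a3 (0.195), were called by neither. DESeq2 called 45 higher and 34 lower, the term for Y-linked counts gave 8 and 13, at least 10 counts in every library gave 1 lower, all 12 libraries in one fit 0 lower, and GENCODE genes only 1 higher. Leaving out 1 library gave 1 to 10 higher and 0 to 15 lower calls, 340 to 846 higher and 269 to 751 lower sums at an unadjusted p under 0.05, 52 to 125 gene list members (81 with all libraries), 438 to 1053 protein-coding genes, 40 to 84 lincRNA genes and 85 to 314 assembled loci under that threshold. Under it were 95 lincRNA genes with no filter and 85 with all 12 libraries (53 otherwise), and 246 assembled loci with all 12 libraries (163 otherwise). With the replicate number as a block, 1 sum was higher and 1 lower; the numbers do not pair these animals.

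The direction of Irf8 turned with the term for Y-linked counts (-0.0488), and those of MSTRG.17500 and Auts2 turned without rows at 100 or more counts in some libraries and 3 or fewer in all others (-1.39 and 0.48). Without assembled loci in the denominator the differences in share were -0.33 points for retained-intron, -0.73 for processed and -0.23 for antisense rows (1.59, 0.0018 and -0.0583 with them). The lincRNA difference of 1.70 points was 0.93 without Malat1 and 0.26 without Malat1, Gm26917 and Gm42418, both chosen after seeing the data. The cause of these shifts was not tested. Of the unadjusted calls 55.96% were higher, 64.26% with library size only and 45.31% with the term for Y-linked counts. Srrm4 was called in 16 of 17 alternatives, Usp12 in 10 of 16, Tet1 in 8 of 16, MSTRG.11359 in 9 of 15, MSTRG.8241 in 7 of 16 and MSTRG.17500 in 9 of 16.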

Other observations

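Some sums outside the fixed rule were chosen after their values were seen. Faap24, a DNA repair gene, had 79, 14 and 54 counts in WT against none in 5 × FAD, at least 43.2-fold lower against a floor of 3 counts over the group (edgeR adjusted p = 0.387). Ptgds, the prostaglandin D synthase of the meninges and choroid plexus, gave 564, 718 and 622 counts in WT 1 to WT 3 against 1717, 1084 and 1542 in the 5 × FAD libraries, for a log2 fold change of 1.38 (standard error 0.23, edgeR adjusted p = 0.262; 1.49 with the term for Y-linked counts), and the 4 tested choroid plexus genes had a median of 0.16 (0.91 with that term). Gm7292, a lincRNA, was at 4795, 4306 and 4405 counts in the WT libraries against 8360, 8453 and 6607 in the 5 × FAD libraries (0.97, edgeR adjusted p = 0.251). Psmb8, a listed immunoproteasome subunit gene not tested for its low counts, was counted 0, 0 and 2 times in the WT libraries and 47, 6 and 2 times in the 5 × FAD libraries.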
